A study of Mus musculus with 2 samples.

Results

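The replication-dependent histone genes were examined in total RNA of mouse hindbrain. Members were the gene entries whose symbol starts with Hist1h, Hist2h or Hist3h. Of 69 such genes in the annotation, 66 were measured here, among 43346 Ensembl genes, and 63 of them are protein-coding and 3 are pseudogenes. Both libraries belong to 1 group: hindbrain dissected from healthy, untreated B6NCrl embryos at embryonic day 11.5, with no engineered allele named in the labels. Pool 1 held tissue of 109 male and female embryos and pool 2 that of 88. Library input was 10 ng of RNA over 200 nt long, with synthetic spike-in RNAs added. The labels name no treatment or control, so the values below are levels in each pool and the differences between the pools.

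Replication-dependent histones package the new DNA of each cell division, and their genes lie in clusters with many near-identical copies. Their transcripts are the animal mRNAs that end in a conserved stem-loop in place of a poly(A) tail. The stem-loop is bound by the protein Slbp, and the 3′ end is cut by a complex guided by the U7 small nuclear RNA. Transcription is tied to S phase through the coactivator Npat. Replacement histones such as H3f3a and H2afz are made throughout the cell cycle from genes whose mRNAs are polyadenylated. In the embryonic hindbrain, dividing progenitors line the ventricle and neurons form outside them, so a bulk sample mixes both. In such a sample, fewer cells of a type and less RNA per cell cannot be told apart.

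The stem-loops are shown first because they mark this class of mRNA and differ between H4 genes and the other families. GENCODE gave a stop codon for 63 members, and 14 of those models had under 16 nt after it, which is too short to hold the 16-nt element. Of the other 49 models, 43 carried a match to the histone stem-loop consensus, starting 21 to 58 nt after the stop codon (median 31 nt). Among members with at least 100 nt after the stop codon it lay within those 100 nt in 24 of 28, against 12 of 20184 other genes (0.0595%). The 43 stem-loops had 8 different sequences. Below, 1 gene stands for each, read 5′ to 3′ on the gene's strand in GRCm38, with the 16-nt element in capitals and up to 5 nt of flank on each side.
Hist1h2ap, chr13:21833026-21833049, minus strand: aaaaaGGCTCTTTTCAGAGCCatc
Hist1h1t, chr13:23696520-23696545, plus strand: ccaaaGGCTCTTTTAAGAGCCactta
Hist1h3g, chr13:23535884-23535909, plus strand: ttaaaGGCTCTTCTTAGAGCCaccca
Hist2h2ac, chr3:96220413-96220438, minus strand: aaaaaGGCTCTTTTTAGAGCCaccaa
Hist1h4d, chr13:23581945-23581970, plus strand: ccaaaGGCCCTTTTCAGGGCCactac
Hist1h4i, chr13:22040961-22040986, minus strand: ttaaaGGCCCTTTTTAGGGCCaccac
Hist1h4b, chr13:23757361-23757386, plus strand: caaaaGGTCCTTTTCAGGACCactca
Hist1h4a, chr13:23760795-23760820, minus strand: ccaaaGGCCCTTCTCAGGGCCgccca
The sequence of Hist1h2ap was shared by 24 genes of the H1, H2A, H2B and H3 families, and that of Hist1h1t by 6 genes. Hist1h3g and Hist2h2ac each had a sequence of their own. All stem-loops of H4 genes began with GGCCC or GGTCC. The Hist1h4d sequence occurred in 6 H4 genes, that of Hist1h4i in 2 and that of Hist1h4b in 2, and Hist1h4a had its own. The 6 members with at least 16 nt after the stop codon but no match were Hist1h1a, Hist1h2bc, Hist1h2bq, Hist1h2br, Hist2h2be and Hist2h3b. The models of Hist2h3b and Hist1h1a have only 37 and 48 nt there, so an element starting late in the range of 21 to 58 nt would be missed. Gene models did not always stop at the element: 21 of the 43 ended within 60 nt after it and 21 ran over 100 nt past it, the longest by 4884 nt for Hist1h1d.

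Levels are given as TPM, a length-adjusted share of the library, with pool 1 before pool 2, or as mean ± SD over the pools (n = 2). With 1 library per pool there was no test, and the SD covers only the spread between these libraries. How well the libraries captured RNAs without a poly(A) tail was not tested, so histone levels and shares are those of captured RNA. Expected counts, which split reads among similar genes, summed to 45340440 and 41261544, of which 41982915 and 36833678 lay on Ensembl genes. Spike-ins held 16.2% and 22.2% of TPM, and the median expressed gene (mean TPM of 1 or more) was 0.11 log2 units higher in pool 1. Of 8 hindbrain markers 7 reached 1 TPM in both pools, with Egr2 at 0.99 and 0.77, while 0 of 4 forebrain markers reached it. Non-neural cells were also sampled: 6 erythroid markers summed to 11964 and 11207 TPM and 4 mesenchyme markers to 470 and 430 TPM. All 5 endothelial and 4 macrophage markers reached 1 TPM in both pools. The part of each cell type in the histone levels was not tested.

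Histone genes together held 4867 TPM in pool 1 and 4635 TPM in pool 2, or 4751 ± 164 TPM (n = 2). In reads this was 58795 and 53694 expected counts, 0.140% and 0.146% of those on Ensembl genes. Members were called detected when they reached 1 TPM in both pools. This held for 50 of the 66, against 59.4% of all protein-coding genes and 33% of all Ensembl genes. Levels were very uneven: 4 members averaged at least 100 TPM, 21 at least 10 TPM, and the median member mean was 3.88 TPM. No read was assigned to 3 members, Hist1h2aa, Hist1h2ba and Hist1h4m, in either pool. Most members had few reads, with 40 of 66 averaging under 100 expected counts, 26 at least 100 and 6 at least 1000.

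**Figure D1:**
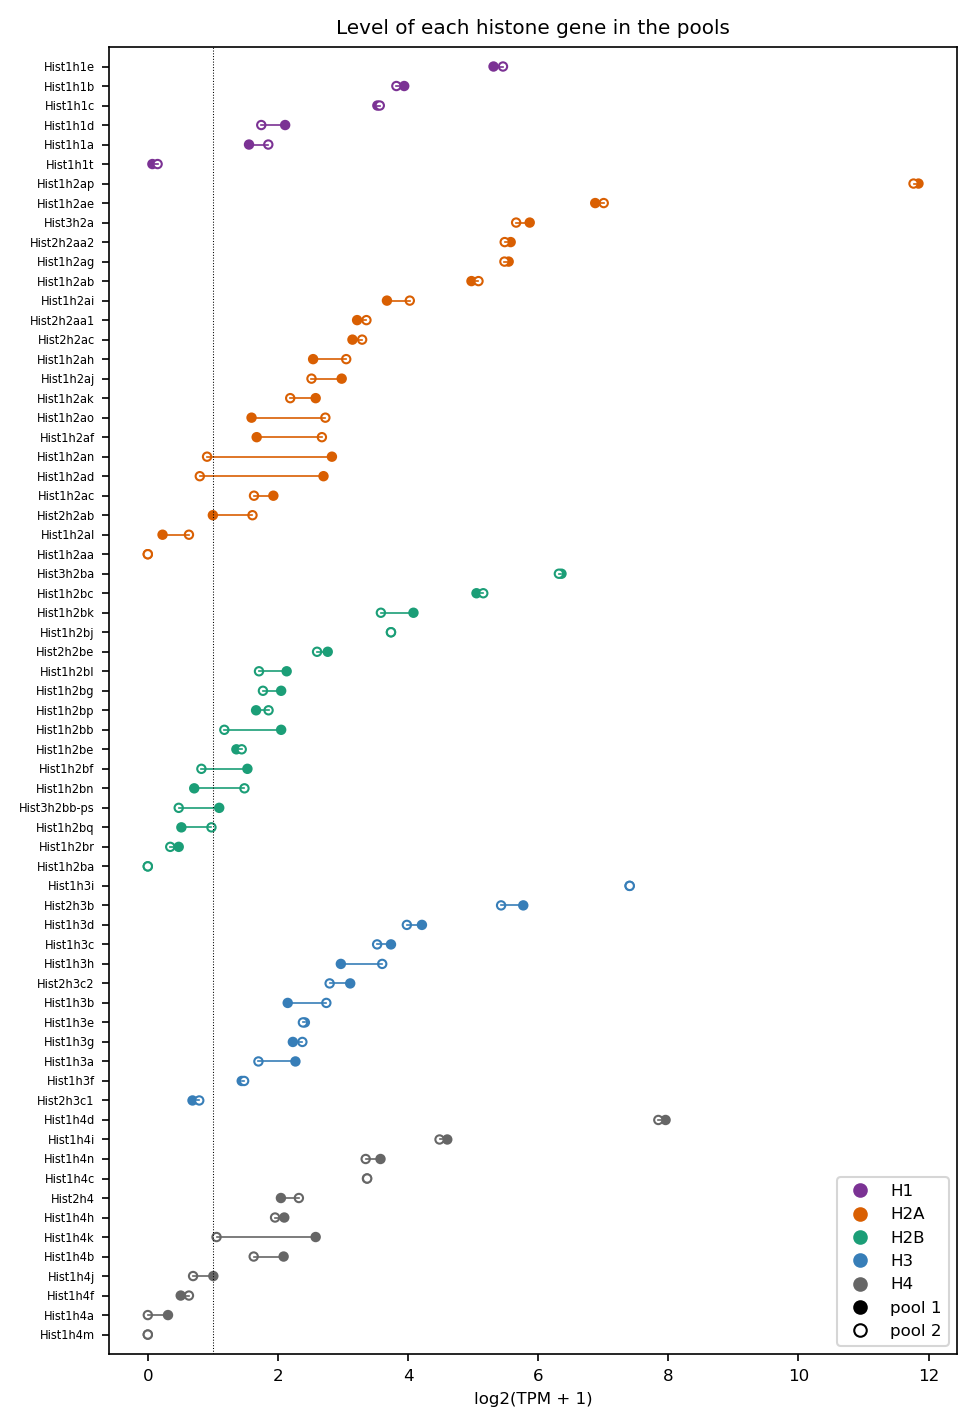
Level of each of the 66 histone genes, as log2(TPM + 1), grouped by family and ordered by mean; filled points are pool 1, open points pool 2, lines join the pools and the dotted line marks a TPM of 1. Hist1h2ap, at 3680 and 3490 TPM, stands far to the right of every other member. The longest joining lines are those of the H2A genes Hist1h2an and Hist1h2ad, followed by the H4 gene Hist1h4k, all of low level.

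A single gene held most of the histone signal. Hist1h2ap, a core H2A gene at chr13:21833026-21833507 on the minus strand, had 3680 TPM in pool 1 and 3490 TPM in pool 2 (3585 ± 134, n = 2). That was 75.6% and 75.3% of all histone TPM. It ranked 9th and 8th among protein-coding nuclear genes of the whole tables. It was supported by 41445 and 37775 expected counts. The remaining 65 members summed to 1187 and 1145 TPM (1166 ± 29.9, n = 2).

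The annotation holds a near-copy, Hist1h2ao, that had 2.02 and 5.63 TPM from 22.6 and 60.6 expected counts. The 482-nt and 480-nt transcripts shared an unbroken block of 452 nt with 0 mismatches, with 30 nt before the block in Hist1h2ap and 28 nt after it in Hist1h2ao. Of 100-nt windows, the read-sized unit used here to count shared sequence, 92.2% in Hist1h2ap and 92.7% in Hist1h2ao occurred in another annotated gene. Windows were matched on either strand to any annotated gene, including genes that overlap the member. The 300-base promoter windows of the pair also shared an unbroken block of 200 bases. Reads from the shared block cannot be told apart by sequence, so the split between the copies rested on the authors' assignment. The posterior SD that the authors deposited for the count was 0.19% and 0.20% of the mean for Hist1h2ap, against 74.1% and 52.6% for Hist1h2ao. The deposited TPM intervals of Hist1h2ap, 3568 to 3642 in pool 1 and 3380 to 3454 in pool 2, lay below the TPM itself in both pools. The copies together held 3682 and 3496 TPM, a sum that does not depend on the split between them.

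The H2A family, whose proteins pair with H2B in the nucleosome, held 83.1 ± 0.0853% of histone TPM (n = 2). It summed to 4041 and 3854 TPM over 20 genes, of which 16 were detected. Hist1h2ae followed Hist1h2ap with 116.6 and 127.7 TPM. Next came Hist3h2a, on chromosome 11, with 57.5 and 49.6 TPM. Hist1h2ae was lower in pool 1 and Hist3h2a higher, by 1.18-fold and 1.07-fold relative to the median gene. Hist3h2a had the second most reads of any member, 3461 and 2871 expected counts, over a 2146-nt model, which put it at rank 6 by TPM. The lowest H2A gene was Hist1h2aa, known from testis, at 0 TPM in both pools. All 20 H2A members overlapped an annotated gene on the opposite strand. Strand settings were not given in the sources used here, so reads of overlapping genes may be mixed.

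H2B genes, the partners of H2A, gave a far smaller sum, 165.2 and 156.3 TPM over 16 genes (160.8 ± 6.29, n = 2), or 3.38 ± 0.0157% of histone TPM. Of the 16 genes 10 were detected. The 3 annotated members not analysed here, Hist1h2bm, Hist1h2bh and Hist2h2bb, are all H2B genes by symbol, so the H2B sum and share leave them out. The highest was Hist3h2ba on chromosome 11 with 81.1 and 78.8 TPM. Hist1h2bc had 32.2 and 34.7 TPM, and its model has no stem-loop match. Hist1h2bk had 15.95 and 10.98 TPM. The lowest was Hist1h2ba, the testis H2B, at 0 TPM in both pools, and 0 of 4 male germ line markers reached 1 TPM in both pools (sums of 0.75 and 0.68 TPM).

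H3 genes, which carry the tail lysines that are acetylated and methylated, summed to 284.0 and 272.2 TPM over 12 genes, 11 of them detected (5.85 ± 0.0251% of histone TPM, n = 2). Hist1h3i alone had 168.5 and 168.8 TPM. Hist2h3b had 53.6 and 42.1 TPM, the largest gap among H3 genes with over 100 reads. Hist1h3d had 17.6 and 14.8 TPM, and the lowest was Hist2h3c1 with 0.61 and 0.73 TPM. H4 genes, whose proteins pair with H3, summed to 307.6 and 280.4 TPM over 12 genes, 8 of them detected (6.19 ± 0.191%, n = 2). Hist1h4d, a gene with no 100-nt window in common with any other, had 247.7 and 229.3 TPM. Hist1h4i had 23.3 and 21.4 TPM and Hist1h4n 10.9 and 9.19 TPM. Hist1h4m, at 0 TPM in both pools, shares an unbroken block of 366 nt with Hist1h4n.

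Linker histone H1 genes, whose proteins bind the DNA between nucleosomes, were the smallest family, at 69.0 and 72.0 TPM over 6 genes (1.49 ± 0.0966%, n = 2). Hist1h1e led with 38.8 and 43.0 TPM. Hist1h1b had 14.4 and 13.1 TPM and Hist1h1c 10.5 and 10.8 TPM. The testis linker histone Hist1h1t had 1 and 2 reads, 0.05 and 0.11 TPM. The other 5 H1 genes were detected.

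Shares among families depended on Hist1h2ap. Without it, H2A held 31.1 ± 0.955% of the remaining TPM, H4 25.2 ± 1.00%, H3 23.8 ± 0.108%, H2B 13.8 ± 0.185% and H1 6.05 ± 0.340% (n = 2 each). The order of H2A, H4 and H3 then held in both pools, with H4 and H3 closer together in pool 2, at 24.5% and 23.8%, than in pool 1, at 25.9% and 23.9%. The nucleosome holds equal numbers of H2A, H2B, H3 and H4, and the summed TPM of the 4 core families were not equal in either pool with or without Hist1h2ap. The H2B sum lacks the 3 H2B genes that were not analysed. Most of the H4 sum came from Hist1h4d, with 247.7 of 307.6 TPM in pool 1 and 229.3 of 280.4 TPM in pool 2.

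**Figure D2:**
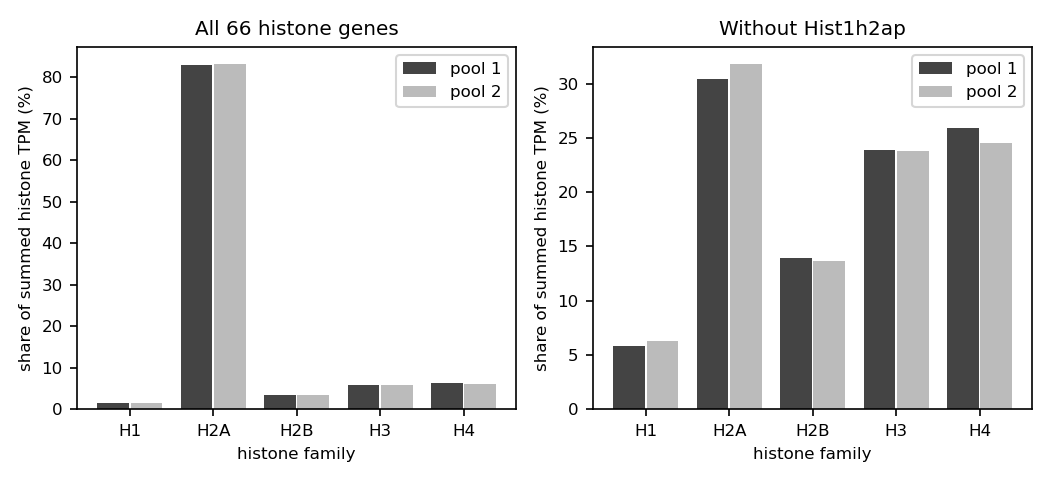
Share of summed histone TPM held by each family, in percent, for all 66 genes (left) and without Hist1h2ap (right); dark bars are pool 1 and light bars pool 2. H2A stands at 83.0% and 83.2% on the left and at 30.4% and 31.8% on the right, where H4, H3, H2B and H1 become visible; the vertical scales differ.

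By cluster, Hist1 dominated. Its 53 genes span chr13:21715763-23934851, with the pseudogene Hist1h2al elsewhere on chromosome 13, and 40 of these 54 were detected. Hist1 summed to 4592 and 4385 TPM (94.5 ± 0.163% of histone TPM, n = 2), or 77.5 ± 0.863% once Hist1h2ap was left out. Within Hist1 the high genes did not sit together. Hist1h3i lies between Hist1h1b and Hist1h2an, which had 14.4 and 13.1 TPM and 6.11 and 0.88 TPM. Hist1h4d lies between Hist1h3d, with 17.6 and 14.8 TPM, and Hist1h2be, with 1.57 and 1.72 TPM. Hist1h2ap and Hist1h2ae were each next to an H2B gene under 4 TPM in both pools.

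**Figure D3:**
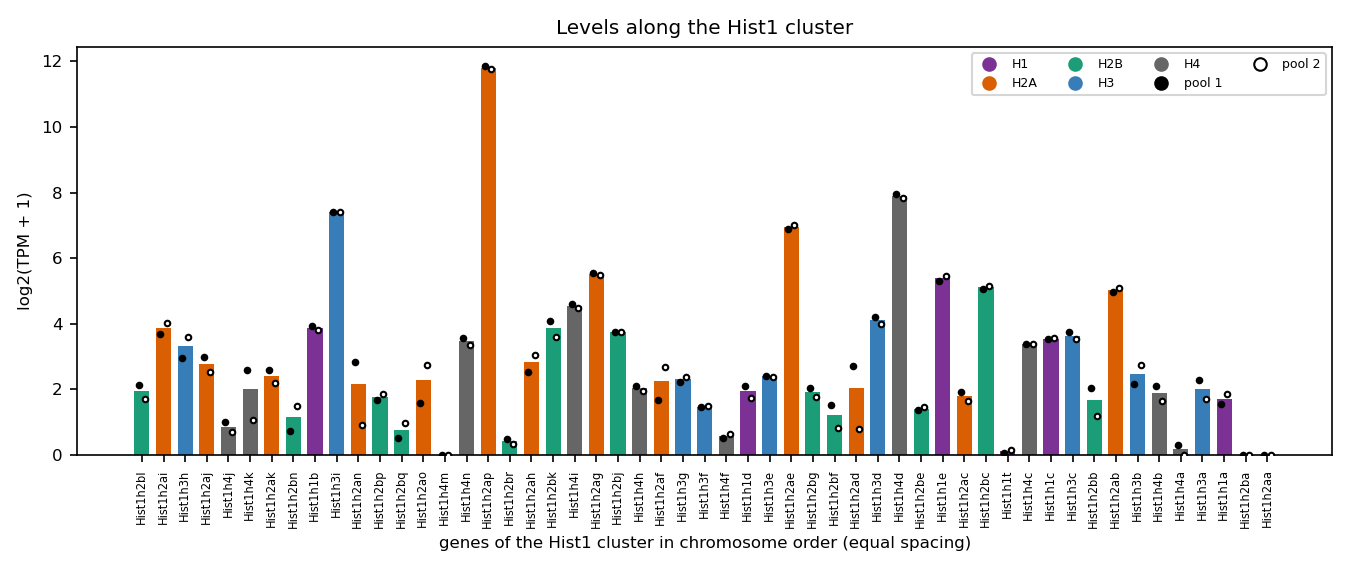
Levels along the Hist1 cluster, as log2(TPM + 1), in chromosome order with equal spacing; bars show the mean of the pools, filled points pool 1 and open points pool 2, and colours the families. Hist1h2ap, Hist1h4d, Hist1h3i and Hist1h2ae rise above their immediate neighbours.

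Hist2, 9 genes at chr3:96219865-96269141 of which 8 were detected, summed to 134.7 and 121.8 TPM (2.70 ± 0.0988%, n = 2). Most of this came from Hist2h3b and from the H2A copies Hist2h2aa2, with 46.8 and 43.8 TPM, and Hist2h2aa1, with 8.30 and 9.27 TPM. The copies share 528 nt, all of the shorter transcript. Every 100-nt window of both occurs in another annotated gene, but not always in the copy. They have 429 windows in common, all those of Hist2h2aa2, while Hist2h2aa1 has 487. For reads of the shared sequence the split between the copies rests on read assignment. Their sum was 55.1 and 53.1 TPM. Hist2h3b and Hist2h3c1 also had all of their windows in other annotated genes, but only part of them in each other or Hist2h3c2. Of 389 windows in Hist2h3b, 300 were in common with Hist2h3c1. Of 1726 in Hist2h3c1, 567 were in common with Hist2h3c2. Hist2h3c2, the other H3 gene of the cluster, had 7.64 and 5.94 TPM. Hist2h2ac had 7.85 and 8.81 TPM, and Hist2h2be 5.80 and 5.07 TPM. Hist2h2be shared no window, and its counts carried a posterior SD of 0. The cluster's H4 gene, Hist2h4, had 3.13 and 4 TPM, and Hist2h2ab had 1.00 and 2.05 TPM. Hist3, 3 genes at chr11:58948920-58956830, summed to 139.7 and 128.8 TPM (2.82 ± 0.0644%, n = 2). Its pseudogene Hist3h2bb-ps had 1.14 and 0.39 TPM beside Hist3h2a and Hist3h2ba.

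Many H2A and H2B genes lie head to head and share the DNA between their starts, with 13 such pairs among the members and gaps of 172 to 305 nt. Partners differed in level. The H2A gene was the higher in both pools in 8 pairs and the H2B gene in 2. The 8 include Hist3h2a, whose partner Hist3h2bb-ps is a pseudogene. In the pair of Hist1h2aa and Hist1h2ba both genes had 0 TPM. Hist1h2ae, at 116.6 and 127.7 TPM, faces Hist1h2bg, at 3.14 and 2.41 TPM. Hist1h2ap faces Hist1h2br, which had 0.39 and 0.27 TPM. The opposite held for Hist1h2ac, with 2.81 and 2.10 TPM, opposite Hist1h2bc, with 32.2 and 34.7 TPM. It also held for Hist1h2ah, with 4.82 and 7.28 TPM, beside Hist1h2bk, with 15.95 and 10.98 TPM. The pairs of Hist1h2ap and Hist1h2ao lie in inverted arrangement, since Hist1h2ao, on the plus strand, faces Hist1h2bq and is followed by Hist1h4m, while Hist1h2ap, on the minus strand, faces Hist1h2br and is followed by Hist1h4n.

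Promoters of the 4 members above 100 TPM are shown because they carry most of the family's signal. Windows run from 250 bases before to 50 after the start that RefSeq gives in GRCm38.p6, which for Hist1h2ap is downstream of the GENCODE start, 5′ to 3′ on the gene's strand, with matches to any of 3 motifs, on either strand, in capitals. The motifs were the TATA box core TATAAA, the box CCAAT that is bound by factors such as NF-Y, and the octamer ATTTGCAT that is known from H2B promoters.
Hist1h2ap, chr13:21833426-21833725, minus strand: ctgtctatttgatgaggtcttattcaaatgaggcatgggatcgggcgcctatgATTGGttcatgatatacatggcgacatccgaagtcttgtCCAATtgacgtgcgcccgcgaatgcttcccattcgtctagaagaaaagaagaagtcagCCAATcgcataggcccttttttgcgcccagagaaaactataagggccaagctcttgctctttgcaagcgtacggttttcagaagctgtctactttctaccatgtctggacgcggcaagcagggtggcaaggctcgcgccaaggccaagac
Hist1h4d, chr13:23581318-23581617, plus strand: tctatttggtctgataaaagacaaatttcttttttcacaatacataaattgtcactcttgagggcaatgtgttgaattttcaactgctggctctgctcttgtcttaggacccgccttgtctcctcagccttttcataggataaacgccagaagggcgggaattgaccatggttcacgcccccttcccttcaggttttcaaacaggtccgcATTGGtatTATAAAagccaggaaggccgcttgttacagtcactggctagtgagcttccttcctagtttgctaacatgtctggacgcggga
Hist1h3i, chr13:21783348-21783647, minus strand: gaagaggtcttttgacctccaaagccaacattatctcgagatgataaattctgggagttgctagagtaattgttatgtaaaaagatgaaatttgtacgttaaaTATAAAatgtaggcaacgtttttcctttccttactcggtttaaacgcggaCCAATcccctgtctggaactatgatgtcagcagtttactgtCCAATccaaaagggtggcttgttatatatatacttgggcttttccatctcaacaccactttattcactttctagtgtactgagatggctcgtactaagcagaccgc
Hist1h2ae, chr13:23571171-23571470, minus strand: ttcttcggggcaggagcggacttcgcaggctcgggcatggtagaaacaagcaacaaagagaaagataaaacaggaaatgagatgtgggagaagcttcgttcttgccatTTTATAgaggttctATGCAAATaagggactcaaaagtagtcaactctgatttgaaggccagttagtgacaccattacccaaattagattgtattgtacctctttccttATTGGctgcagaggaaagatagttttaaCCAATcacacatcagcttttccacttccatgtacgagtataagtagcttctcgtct
Hist1h4d held TATAAA 32 bases before the start. Hist1h2ap held CCAAT 3 times but neither of the other motifs in this window. Hist1h2ae held all 3 motifs, with TATAAA (-142 bases from the start) and the octamer (-128) in reverse orientation. The same bases read TATAAA (-43) and ATTTGCAT (-59) on the strand of its head-to-head partner Hist1h2bg. RefSeq windows matched 58 of the 66 members. TATAAA occurred in 35 of 58 (60.3%), against 13.6% of 32851 promoters, and in 16 it started 20 to 45 bases before the start. CCAAT occurred in 50 of 58 (86.2%), against 37.4% of all promoters. It was in all 47 windows outside the H4 family and in 3 of 11 H4 windows, Hist1h4d among them. ATTTGCAT occurred in 11 of 58 (19.0%), against 1.74%, with 7 in the 18 H2A windows, 4 in the 13 H2B windows and 0 in those of H1, H3 and H4. The head-to-head pairs share promoter DNA, so H2A and H2B windows are not independent.

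Between the pools the median histone gene differed little. Ratios were taken as log2 of TPM + 1 in pool 1 over pool 2, relative to the median of the 14942 genes whose mean TPM was 1 or more. Over the 54 members above that level the median was -0.04, against 0.00 for all genes and 0.01 for protein-coding genes. There were 25 members higher and 29 lower in pool 1. The range was wide, from -1.24 to 1.81, while the central 95% of all genes lay between -0.74 and 0.49.

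Past 1.5-fold there were 12 of the 54 members, against 5.98% of all 14942 genes and 3.15% of protein-coding genes. Among all genes the percentage was 17.3% with 10 to 100 reads, 5.48% with 100 to 1000 and 1.53% with at least 1000. All 12 members averaged under 100 expected counts, and 11 of them lay in the bin of 10 to 100 reads. There, 11 of 27 members were past 1.5-fold (40.7%), against 17.3% of all genes. The parts of read sharing and counting noise in this were not tested. Higher in pool 1 were 5 members, against 1.63% of all genes, led by Hist1h2an with 6.11 and 0.88 TPM (relative log2 ratio 1.81). Hist1h2ad had 5.5 and 0.74 TPM (1.79), and Hist1h4k 4.98 and 1.08 TPM (1.42). Hist1h2bb had 3.14 and 1.26 TPM (0.76), and Hist1h2bf 1.89 and 0.77 TPM (0.60). These genes encode ordinary core histones, and Hist1h2ad and Hist1h2bf face each other as a pair.

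Lower in pool 1 were 7 members, against 4.35% of all genes, led by the Hist1h2ap copy Hist1h2ao (relative log2 ratio -1.24). Hist1h2af had 2.19 and 5.39 TPM (-1.11), and Hist1h2bn 0.64 and 1.80 TPM (-0.88). Hist1h3h had 6.82 and 11.2 TPM (-0.74), and Hist1h3b 3.44 and 5.70 TPM (-0.70). The last 2 were Hist2h2ab (-0.72) and Hist1h2ah (-0.62). Of all 12 members, 10 had over 50% of their windows in other annotated genes, which need not be histone genes. For Hist2h2ab, 206 of 345 windows were shared, but only 5 of them with another member, Hist2h2ac. The deposited TPM intervals of the pools overlapped for each of the 12, while 3.22% of all genes were past 1.5-fold with intervals apart. Intervals did not overlap for 3 other members, Hist1h2ap, Hist3h2a and Hist2h3b, against 40.4% of all genes. The intervals are of deposited TPM and are not taken relative to the median gene, which was 0.11 log2 units higher in pool 1. For Hist1h2ap pool 1 had the higher interval, while its relative log2 ratio was -0.03. The largest relative fold was 1.38 among members with at least 100 reads and 1.18 among those with at least 1000.

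**Figure D4:**
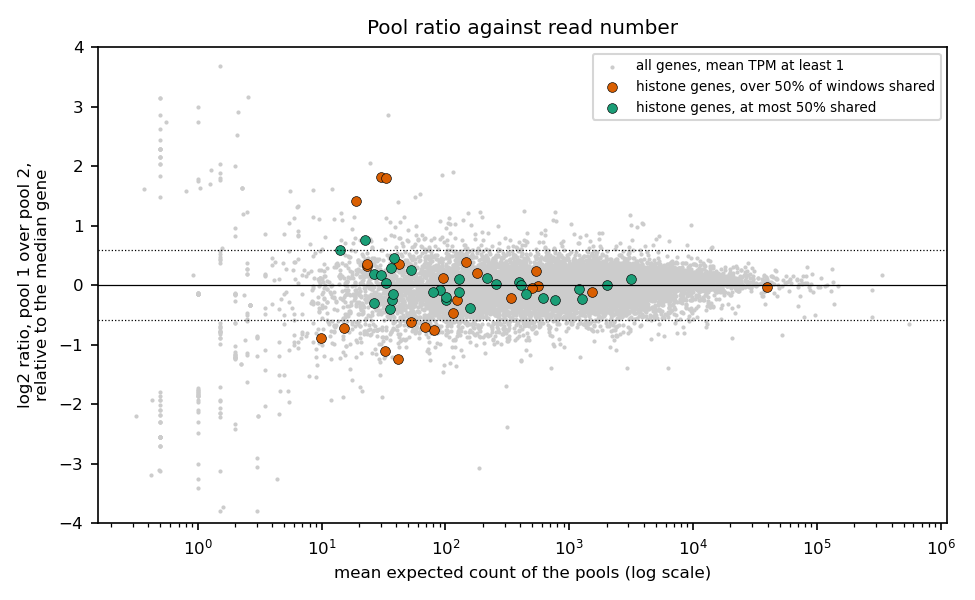
Log2 ratio of pool 1 over pool 2, relative to the median gene, against the mean expected count on a log scale; grey points are all expressed genes (vertical axis limited to 4 log2 units each way), coloured points the 54 histone genes by share of windows, dotted lines 1.5-fold. The 12 histone genes outside the lines all lie below 100 reads and 10 of them share over 50% of their windows with other annotated genes.

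Many members shared sequence and had uncertain read assignment. The median member shared 37.8% of its 100-nt windows with other genes, 28 shared over 50%, 4 shared all and 6 shared none. These shares count any annotated gene on either strand, so they include overlapping genes beside copies. Hist3h2a, for example, shared 29.8% of its windows but none with another member. Linked by shared windows, 18 H2A genes formed a single group with 3983 and 3805 TPM. Similarly, 9 H3 genes of Hist1 formed a group with 222.2 and 223.4 TPM, and 10 H4 genes a group with 56.7 and 47.1 TPM. For members with 10 to 100 reads the posterior SD of the count was 22.7% of its mean in the median, and over 10% for 25 of 31 members (80.6%), against 14.4% of all genes with as many reads. With 100 to 1000 reads it was over 10% for 3 of 20 members (15%), against 2.55% of all genes. With at least 1000 reads it was over 10% for 0 of 6 members, against 0.210%.

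**Figure D5:**
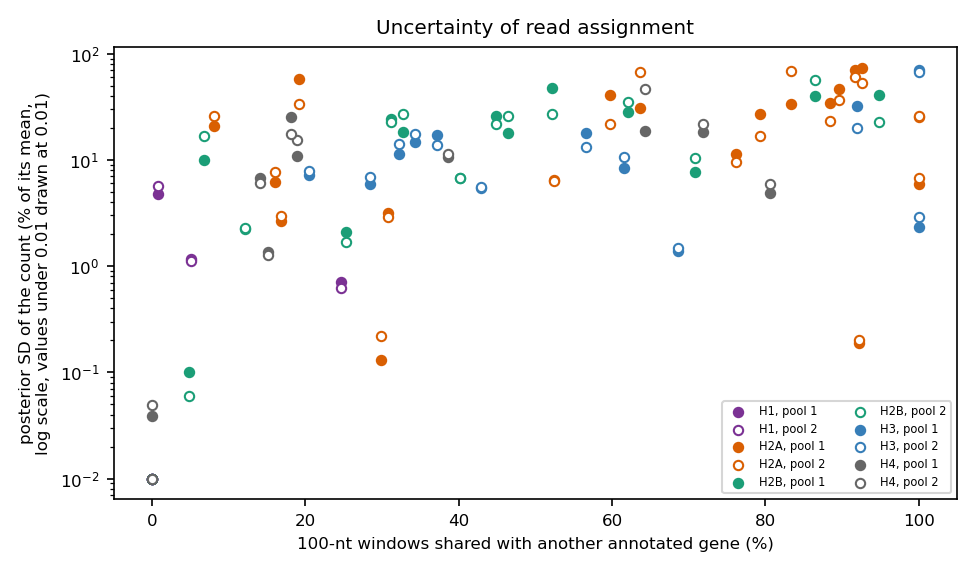
Posterior SD of the expected count, as a percent of its mean on a log scale, against the percent of 100-nt windows shared with another annotated gene, for members with a read in both pools; colours are families, filled points pool 1, open points pool 2, and values under 0.01 are drawn at 0.01. Hist1h2ap combines 92.2% shared windows with an SD of 0.19% and 0.20%, while its copy Hist1h2ao lies at 74.1% and 52.6%.

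Alternative transcripts were annotated for 4 members, all H2B genes with a mean under 5 TPM, which are named after their values were seen. The longest transcript of Hist1h2bp held 15.7% and 5.73% of the gene's TPM, and that of Hist1h2be 0% and 15.1%. For Hist1h2bq it held 53.5% and 100%, and for Hist1h2br 0% and 100%. These genes had 13.4 to 103.3 expected counts in a pool, and the shares moved between the pools by up to their whole range.

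Replacement histone genes were high beside the replication-dependent ones. All 11 such genes examined were detected, with sums of 8486 and 7413 TPM. H3f3a, which encodes the H3.3 variant, had 2705 and 2327 TPM. H2afz, which encodes H2A.Z, had 2146 and 1950 TPM, and H3f3b had 1601 and 1448 TPM. Hist4h4, kept in the same list, encodes an ordinary H4 from outside the clusters and had 0.72 and 0.47 TPM. For H3 the replacement sum was 15.2 and 13.9 times the replication-dependent sum. For H2A it was 0.913 and 0.860 times, or 10.2 and 9.11 times without Hist1h2ap. These ratios compare length-adjusted levels in a library whose capture of RNAs without a poly(A) tail was not tested.

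Linker histones gave the largest pool difference among replacement genes. H1f0, the linker histone known from differentiated cells, had 206.7 TPM in pool 1 and 95.2 TPM in pool 2 (relative log2 ratio 1.00). H1fx had 55.9 and 28.4 TPM (0.84). The replacement sum for H1 was thus 3.81 and 1.72 times that of the H1 members, which themselves had 69.0 and 72.0 TPM. Of 4 skeletal muscle markers, 3 were also over 1.5-fold higher in pool 1, against 1.63% of all genes, with list sums of 54.4 and 23.9 TPM and Myf5 at 1.22 and 0.73 TPM. Of 6 neural progenitor markers 1 was, Hes5 with 202.1 and 109.1 TPM (0.78), while Sox2 had 25.2 and 15.4 TPM (0.57). Nes (-0.25), Vim (-0.06) and Sox1 (-0.05) went the other way, and Fabp7 was at 0.03. The progenitor list had a median relative log2 ratio of -0.01 and summed to 2353 and 2127 TPM. The part of either list in the H1f0 and H1fx difference was not tested.

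Genes of histone mRNA processing and transcription, histone chaperones, DNA replication, and G2 and M phase were all detected. Of 53 such genes 0 passed 1.5-fold between the pools, against 1.53% of all genes with at least 1000 reads, as 47 of the 53 had. The chaperone Supt16 was nearest to that limit, with 66.1 and 90.9 TPM (relative log2 ratio -0.56). In the 14 genes of histone mRNA processing and transcription, the median relative log2 ratio was 0.06. Slbp had 201.0 and 182.1 TPM, the cleavage enzyme Cpsf3 95.6 and 76.3 TPM, and the cleavage factor Cstf2 53.6 and 45.8 TPM. The lowest was Zfp473, a factor of the U7 complex, with 2.75 and 2.07 TPM. In the 13 histone chaperones, which carry histones to or from DNA, the median was also 0.06. Npm1 had 733.8 and 651.3 TPM, Nap1l1 243.4 and 239.0 TPM, and Ssrp1 of the FACT complex 255.5 and 210.2 TPM, while Hira, the H3.3 chaperone, was lowest with 10.4 and 10.1 TPM.

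In the 18 DNA replication genes the median was 0.12. The ribonucleotide reductase subunit Rrm2 had 294.5 and 230.2 TPM, the sliding clamp Pcna 250.6 and 216.2 TPM, and the helicase subunit Mcm6 214.8 and 176.6 TPM. The lowest was Pola1, the catalytic subunit of polymerase alpha, with 14.5 and 15.1 TPM. In the 8 genes of G2 and M phase the median was 0.13, with Cdk1 at 291.1 and 238.3 TPM and Ccnb1 at 260.1 and 222.4 TPM. Top2a had 249.9 and 227.4 TPM, and Mki67 was lowest with 37.4 and 39.0 TPM.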

How the data were processed

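Total RNA of 2 libraries of E11.5 mouse hindbrain was sequenced, as separate biological replicates of 1 group. Per the labels, extraction used mirVana and a Smart-Seq protocol is cited. The assembly was mm10 and the annotation GENCODE M4, per the deposited readme. The aligner, quantifier and strand settings were not given in the sources used here. Per the file headers, the authors deposited an expected count per gene and transcript, with its TPM, FPKM, posterior mean and posterior SD of the count, bounds of a TPM interval whose level is not given, and an isoform percent. Deposited TPM counts spike-ins in its total. Effective length was the length minus 99 nt.

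Symbols came from GENCODE vM21, matched without version, in the same build (GRCm38). Its gene model had the length of the deposited one for 43 of 66 members, so stem-loops and shared 100-nt windows describe vM21 models. A window counted as shared when any other annotated gene held it on either strand. Of 69 annotated members, 3 (Hist1h2bm, Hist1h2bh and Hist2h2bb) are not analysed here. Model lengths ran from 312 to 2620 nt (median 478.5). Promoters came from RefSeq GRCm38.p6.

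Members and lists were chosen with earlier results of these data known. Named genes were, in each family and list, the 3 highest and the lowest by mean TPM, every histone gene outside Hist1, every histone gene over 1.5-fold apart, and those with several transcripts and a mean TPM of at least 5. Pool ratios used a pseudocount of 1, so the folds of low genes are understated. No p-value was computed. Deposited counts were rounded for TMM factors (edgeR 4.0.16) and size factors (DESeq2 1.42.0) in R 4.3.3. Python 3.11.15 was used with pandas 2.3.3, NumPy 2.4.6, Biopython 1.88 and Matplotlib 3.10.9. Counts were simulated for pool 1 over pool 2 (14888 genes, with an assumed coefficient of variation of 0.1). Raised genes had a mean TPM of at least 5 and at least 100 reads, and read sharing was not simulated. Over 1.5-fold higher in pool 1 were 96% of genes raised 2-fold, 100% at 3-fold and 1.10% of unchanged genes. The rates for raised genes do not cover the 12 members past 1.5-fold, which all averaged under 100 reads. In the real pools 1.63% of genes were over 1.5-fold higher in pool 1 and 4.35% lower, so the simulation may understate the spread. Alternatives were other pseudocounts, filters, units, scalings, leaving out Hist1h2ap, and each pool alone.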

Additional observations from a re-analysis of the deposited data

How the results depend on the processing

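Depth and read sharing limit the low members, and TPM depends on gene model length. Summed histone TPM, 4751 in the main analysis, was 3166 as FPKM, 5882 with TPM rescaled without spike-ins, 6786 rescaled over protein-coding nuclear genes and 1166 without Hist1h2ap; each pool alone gave 4635 to 4867. The number of detected members, 50, was 27 at a TPM of at least 5 and 41 to 56 under the other alternatives. As shares of expected counts, the families held 2.78% (H1), 82.0% (H2A), 4.91% (H2B), 5.27% (H3) and 5.08% (H4), and the clusters 88.5% (Hist1), 3.74% (Hist2) and 7.74% (Hist3). Without Hist1h2ap the TPM shares were 6.05%, 31.1%, 13.8%, 23.8% and 25.2% for the families in that order, and 77.5%, 11.0% and 11.5% for the clusters. By counts H3 was above H4, and by TPM H4 was above H3. The median pool ratio of -0.04 stayed between -0.06 and 0.01 under each alternative. The 12 members over 1.5-fold apart became 2 at a mean TPM of at least 5 and 4 with TMM-scaled counts, against 13 with DESeq2 size factors. The pseudocount of 1 was added to CPM values under TMM and to scaled counts under DESeq2, so TMM shrank the folds of low genes more. Chosen after seeing the data, a minimum of 100 reads gave 0, under 50% of windows shared gave 2, and non-overlapping intervals gave 0. No paired analysis was possible because both libraries belong to the same group.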
